A study of Mus musculus with 8 samples.

Results

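The keratins of simple and stratified epithelium were followed in mouse liver duct cells as these were taken into organoid culture. The 10 genes Krt7, Krt8, Krt18, Krt19, Krt20, Krt23, Krt80, Krt5, Krt14 and Krt17 were chosen by name, as keratins of ducts and related epithelia, out of 47729 genes in the deposited table. They stand among 53 keratin genes there, and they carried between 99.7% and 99.98% of the summed level of all 53 in a library. Cells were sorted for EpCAM, an adhesion protein of duct epithelium, from healthy livers of adult male mice of strain C57/B6, and no genetic change is labelled. RNA was measured in 2 libraries of cells freshly isolated, 2 of cells cultured for 12 h in Matrigel with organoid medium, 1 kept there for 24 h, 1 with the title 48h, and 2 of organoids that had grown for 6 days. The library titled 48h is labelled 24 h elsewhere and is kept apart under its title. The sources used here do not tell whether replicates came from separate animals or whether animals were pooled, so that p-values cover just the spread among these libraries, which could be technical.

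Keratins are the intermediate filament proteins of epithelia, and a filament is built of pairs of a type I (acidic) and a type II (basic) keratin. Krt8 (type II) and Krt18 (type I) form the basic pair of simple epithelia and are made by hepatocytes and duct cells alike, while Krt7 and Krt19 are the classical markers that set bile ducts apart from hepatocytes. Krt5 and Krt14 are the pair of the basal layer of stratified epithelia, and Krt17 is a type I keratin of skin appendages that is induced in wounded and stressed epidermis. On GRCm38 the type I genes Krt20, Krt23, Krt19, Krt14 and Krt17 lie in the keratin cluster of chromosome 11, between base 99428403 and base 100261029. The type II genes Krt80, Krt7, Krt5 and Krt8 lie in the cluster of chromosome 15, between 101347444 and 102004482. Krt18 lies at 15:102028180-102032027, so that this type I gene stands beside its partner Krt8 (15:101996698-102004482), on the other strand and 23697 bases away.

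The stretch before the start of transcription is shown for the 4 keratins that the results turn on, namely the neighbouring pair Krt8 and Krt18, whose ratio differed between fresh and cultured cells, and Krt7 and Krt23, which passed the test in opposite directions. Sequences are from RefSeq (GRCm38.p6), 5′ to 3′ on the strand of the gene, each cut where an annotated exon of a protein-coding transcript begins. Capitals mark GGGCGG or its reverse complement.
Krt8 (chr15:102004483-102004592, minus strand): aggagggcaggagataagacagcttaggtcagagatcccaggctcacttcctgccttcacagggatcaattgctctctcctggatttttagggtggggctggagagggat
Krt18 (chr15:102027966-102028179, plus strand): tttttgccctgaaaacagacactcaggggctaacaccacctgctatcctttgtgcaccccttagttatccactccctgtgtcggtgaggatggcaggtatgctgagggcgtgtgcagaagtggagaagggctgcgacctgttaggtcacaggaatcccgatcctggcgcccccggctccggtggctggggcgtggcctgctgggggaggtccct
Krt7 (chr15:101412153-101412401, plus strand, inside the gene as GENCODE M21 draws it, which has an earlier start at 101411043): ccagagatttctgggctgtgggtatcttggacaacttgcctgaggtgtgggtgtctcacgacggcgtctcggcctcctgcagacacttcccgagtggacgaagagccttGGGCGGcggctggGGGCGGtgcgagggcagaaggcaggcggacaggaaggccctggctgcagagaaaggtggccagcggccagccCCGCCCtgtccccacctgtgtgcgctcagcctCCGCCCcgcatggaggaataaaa
Krt23 (chr11:99493138-99493370, minus strand): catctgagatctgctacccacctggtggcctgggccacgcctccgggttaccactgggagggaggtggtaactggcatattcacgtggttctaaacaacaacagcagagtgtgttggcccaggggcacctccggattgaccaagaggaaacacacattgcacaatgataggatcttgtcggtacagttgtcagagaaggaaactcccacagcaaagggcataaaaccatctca

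Windows of 250 bases before the start were found for 7 of the 10 keratins, and the whole windows, of which the sequences above are the parts before an exon, were searched on both strands for 4 motifs. These were TATAAA, the core promoter box, then GGGCGG, the box known for Sp1, then TGANTCA, the form known for AP-1, and last GGAATG, the form known for TEAD factors. Krt7 held GGGCGG at 4 places, which begin at positions −141, −128, −56 and −24 from the RefSeq start, and 32.7% of all 32851 windows of that length held it at least once. Krt8, Krt18 and Krt23 held none of the 4 motifs. Krt20 held TATAAA at position −29, found in 12.4% of all windows, and GGAATG at −139, −134 and −74, found in 12.6%, the first 2 of which share 1 base. Krt14 held GGAATG at −66, and TGANTCA, found in 6.75% of all windows, was in none of the 7. The Krt14 window, like that of Krt7, lies inside the gene as GENCODE M21 draws it, with an earlier start at 100207548. These matches are descriptions of the letters and no binding was measured.

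Levels are RPKM, the reads of a gene divided by its length and by the size of the library. The libraries corresponded to between 13833143 and 28468920 effective reads, with 8814 genes at or above 1 RPKM at 24 h and between 10605 and 11263 such genes elsewhere. The sorted cells carried their defining marker, with Epcam between 513 and 1175 RPKM in all 8 libraries. The 15 hepatocyte markers summed to 979 and 1034 RPKM in fresh cells, 68.3 and 68.9 at 12 h, 77.3 at 24 h, 185 under the 48h title and 36.8 and 57.2 in organoids. With bulk RNA, fewer cells of a type and less RNA per cell cannot be told apart. RPKM summed to 446034 in organoid replicate 1 and to between 357129 and 369701 in the other 7 libraries, so shares within a library are given beside levels.

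Keratin RNA as a whole was most abundant in freshly sorted cells. The 10 keratins summed to 13006 and 12919.8 RPKM in fresh cells, 7725 and 6110.3 at 12 h, 6546 at 24 h, 6067 under the 48h title and 10603 and 8375 in organoids. All 6 cultured libraries lay below both fresh ones, and the organoids lay above the 4 libraries of earlier culture. As a share of all RPKM of the library the same sum was 3.52% and 3.62% in fresh cells, 2.11% and 1.67% at 12 h, 1.81% at 24 h, 1.65% under the 48h title and 2.38% and 2.33% in organoids, with the same order of groups. The group means were 3.57% ± 0.0705 in fresh cells, 1.89% ± 0.313 at 12 h and 2.35% ± 0.0319 in organoids (SD, n = 2 each). With 2 libraries against 2, an exact two-sided permutation test cannot give a p below 0.333, and sums and shares are therefore described without a test. Krt8, Krt18 and Krt19 together made up between 92.0% and 97.7% of the keratin sum in every library.

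**Figure D1:**
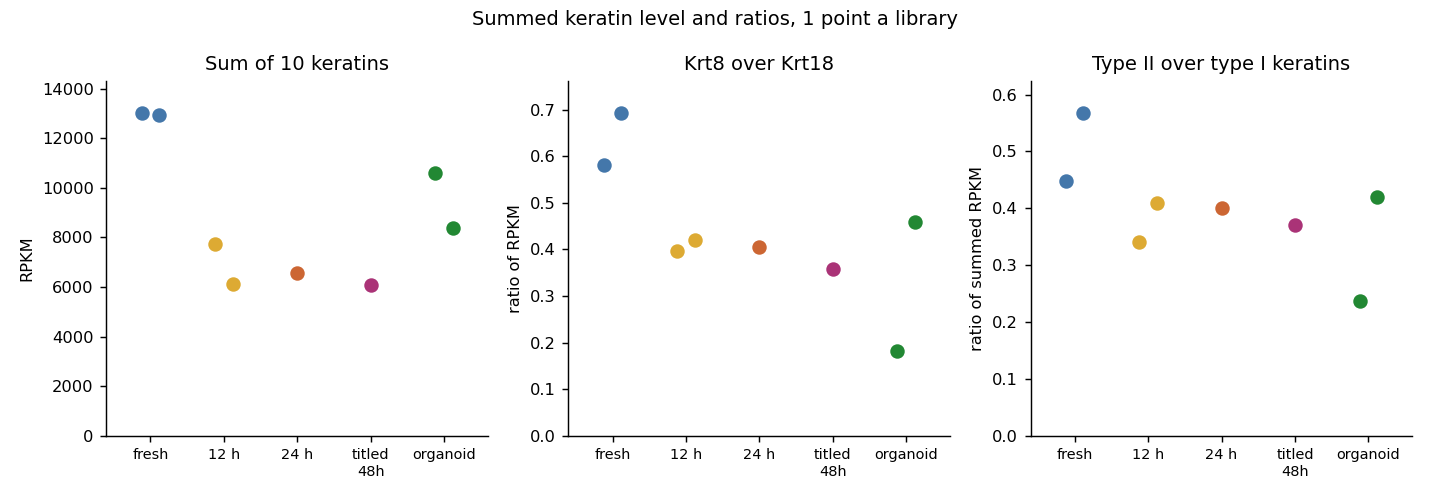
Summed level of the 10 keratins in RPKM (left), the ratio of Krt8 to Krt18 (middle) and the ratio of summed type II to summed type I keratins (right), 1 point a library on linear axes from 0, with groups along the horizontal axis. The 2 fresh libraries stand at the top of each panel, at sums of 13006 and 12919.8 RPKM and Krt8 to Krt18 ratios of 0.581 and 0.692.

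Between fresh cells and organoids the mean shares of Krt18, Krt19 and Krt7 in that keratin RNA were higher and those of Krt8 and Krt23 lower. Krt18 was the most abundant keratin per length in all 8 libraries, with 51.5% ± 0.124 of the keratin sum in fresh cells, 62.5% ± 4.75 at 12 h and 58.0% ± 6.41 in organoids (SD, n = 2 each). Krt8 came next in 7 libraries, with 32.8% ± 3.96, 25.5% ± 2.98 and 17.9% ± 9.38 in the same order. In organoid replicate 1 Krt19 was second instead, with 18.1% of the sum against 11.3% for Krt8. Krt19 held 10.5% ± 3.16 in fresh cells, 9.40% ± 7.35 at 12 h and 17.0% ± 1.61 in organoids, and the 2 organoid libraries, at 18.1% and 15.8%, were above all others. Krt7 held 0.626% ± 0.234, 1.62% ± 0.367 and 6.26% ± 1.94, and Krt23 held 3.78% ± 0.532, 0.181% ± 0.172 and 0.361% ± 0.225.

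The order of the minor keratins was not the same in all libraries. After Krt18, Krt8 and Krt19, the next keratin by level per length was Krt23 in both fresh libraries and Krt7 in all cultured libraries apart from 24 h. At 24 h, in 1 library, Krt17 came before Krt19 and Krt7 by RPKM as deposited, with 2.55% of the keratin sum against 2.47% for Krt19. The 6 keratins other than Krt8, Krt18, Krt19 and Krt7 made up 4.98% and 4.36% of the sum in fresh cells, 0.937% and 0.906% at 12 h, 3.03% at 24 h, 0.952% under the 48h title and 0.394% and 1.21% in organoids.

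**Figure D2:**
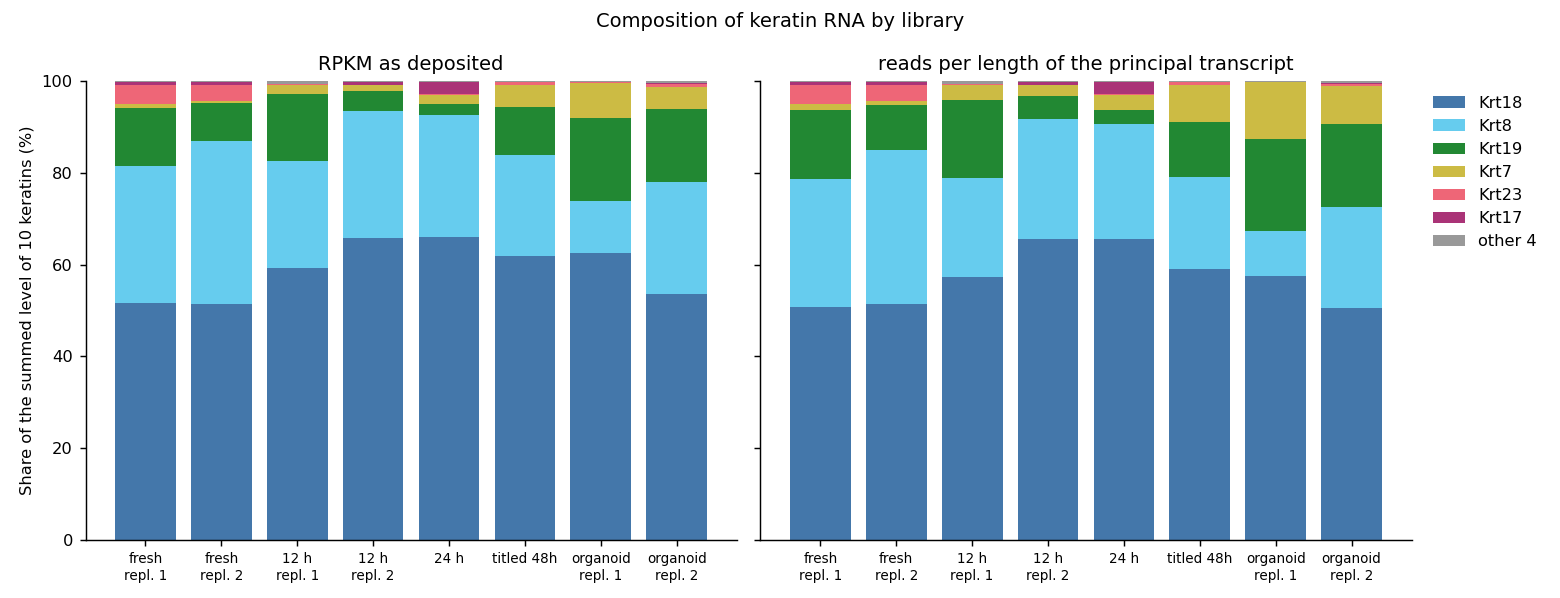
Share of each keratin in the summed level of the 10, in percent, 1 bar a library, from RPKM as deposited (left) and from reads per length of the principal transcript (right). Krt18 is the largest block in every bar, and the Krt7 block is largest in the 2 organoid bars, at 7.64% and 4.89% on the left.

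These shares depend on the length by which reads were divided. The deposited RPKM of Krt7 used a length of 7055 bases, whereas its principal transcript in GENCODE M21 has 4094, so that Krt7 is 1.72 times higher per length of that transcript. With principal transcript lengths for all 10 genes, an alternative chosen after seeing the data, Krt7 held 1.09% ± 0.399 of the keratin level in fresh cells, 2.81% ± 0.584 at 12 h and 10.3% ± 2.98 in organoids (SD, n = 2 each). Krt80 went the other way, with 1774 bases behind its RPKM against 3067 in its principal transcript. On principal transcript lengths Krt7 held 3.28% at 24 h, Krt19 2.97% and Krt17 2.61%, so that Krt17 no longer came before them. In organoid replicate 1 Krt7 then held 12.4% and Krt8 9.82%, so that Krt8, Krt18 and Krt19 were no longer the largest shares there. Krt18 held 51.0% ± 0.416 in fresh cells and 54.0% ± 4.81 in organoids (SD, n = 2 each). Organoid replicate 2, at 50.6%, was then below both fresh libraries, at 50.7% and 51.3%. Comparisons of a gene with itself across libraries are not touched by this.

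Across the 3 comparisons between replicated groups, only Krt23 and Krt7 passed the test. The test was limma on log2(RPKM + 1) over the 12900 genes that reached 1 RPKM in 2 libraries or more, with Benjamini-Hochberg adjustment and a threshold of 0.05, and 8 of the 10 keratins entered it. Krt5 and Krt14 did not reach that level. At 12 h against fresh cells 1 of the 8 was called, lower, where 6.81% of all genes tested were called, 3.09% higher and 3.72% lower. In organoids against fresh cells 1 was called lower and 1 higher, where 10.1% of all genes were called, 5.15% higher and 4.94% lower. In organoids against 12 h, limma called 0 of the 8, with 2 at an unadjusted p under 0.05, where 2.0% of all genes were called, 1.38% higher and 0.62% lower. The median fitted change of the 8 keratins was −1.28 log2 units at 12 h against fresh cells, beside 0.24 for all genes tested. For organoids it was −0.51 against fresh cells, beside 0.17, and 0.96 against 12 h, beside −0.09.

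Counted by whether the 2 libraries of each group overlapped, 5 of 8 keratins (Krt8, Krt18, Krt23, Krt80 and Krt17) were lower in both 12 h libraries than in both fresh ones and 1, Krt20, was higher. Over all genes tested, 62.2% did not overlap, 23.6% lower and 38.6% higher. The same 5 were lower in both organoid libraries and Krt7 was higher, where 64.7% of all genes did not overlap, 26.6% lower and 38.1% higher. For Krt18 this separation was between 6632 and 6640 RPKM, a gap far smaller than the difference between the 2 organoid libraries. In organoids against 12 h, Krt7, Krt19 and Krt80 were higher without overlap and 0 of 8 were lower, where 44.9% of all genes did not overlap, 20.8% higher and 24.1% lower.

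**Figure D3:**
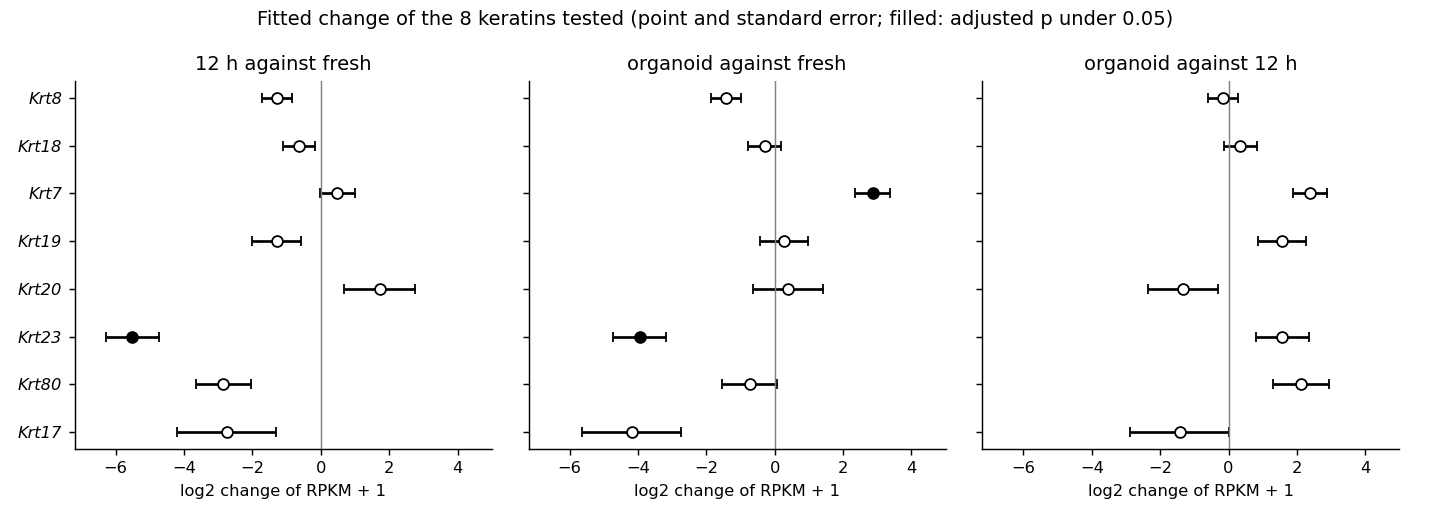
Fitted log2 change of RPKM + 1 for the 8 keratins tested, with its standard error, in the 3 comparisons between replicated groups; filled points have an adjusted p under 0.05 by limma. Krt23 is filled in the left and middle panels, at −5.52 and −3.95, and Krt7 in the middle panel, at 2.86.

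Both members of the basic pair had lower values in all 6 cultured libraries than in both fresh ones, and neither passed the test. Krt8, the type II partner, stood at 3898 and 4595 RPKM in fresh cells, 1810.4 and 1689.8 at 12 h, 1749.7 at 24 h, 1344 under the 48h title and 1199.7 and 2059 in organoids. Every cultured library was below both fresh ones, by means of 4247 ± 493 in fresh cells, 1750.1 ± 85.3 at 12 h and 1629 ± 608 in organoids (SD, n = 2 each). The fitted change did not pass, at −1.27 at 12 h (SE 0.44, adjusted p = 0.128) and −1.43 in organoids (SE 0.44, adjusted p = 0.0895) by limma. Without organoid replicate 2 the organoid change did pass, at an adjusted p of 0.0414. Hepatocyte markers, whose cells also make Krt8 and Krt18, were lower in the same libraries, and their part in these values was not tested.

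Krt18, the type I partner, stood at 6707 and 6640 RPKM in fresh cells, 4569 and 4025 at 12 h, 4314 at 24 h, 3746 under the 48h title and 6632 and 4479 in organoids. All 6 cultured libraries were below both fresh ones, with organoid replicate 1 the closest to them. The fitted change was −0.64 at 12 h (adjusted p = 0.44) and −0.29 in organoids (adjusted p = 0.721), neither past the threshold. Between 114837 and 264643 reads stood behind each of these levels, and between 29954 and 236124 behind those of Krt8.

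The ratio of Krt8 to Krt18 within a library does not depend on how libraries are scaled. It was 0.581 and 0.692 in fresh cells, 0.396 and 0.420 at 12 h, 0.406 at 24 h, 0.359 under the 48h title and 0.181 and 0.460 in organoids. The 6 cultured libraries were all below the lower fresh value, and the 2 organoid libraries differed from each other by more than any others within a group. The ratio of all type II to all type I keratins was 0.447 and 0.567 in fresh cells, 0.340 and 0.409 at 12 h, 0.400 at 24 h, 0.370 under the 48h title and 0.236 and 0.420 in organoids. That separation from fresh cells ended with principal transcript lengths, where organoid replicate 2 had 0.433 and fresh replicate 1 had 0.415.

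Krt7, a type II keratin of bile ducts and other glandular and transitional epithelia, rose in organoids. It stood at 103 and 59.5 RPKM in fresh cells, 145 and 83.3 at 12 h, 122 at 24 h, 285 under the 48h title and 809.8 and 409 in organoids. The library titled 48h was above all earlier ones, both organoid libraries were above it, and the 12 h libraries overlapped with fresh cells. The organoid mean of 609.5 ± 283 was 7.51-fold higher than the fresh mean of 81.2 ± 30.7 RPKM (SD, n = 2 each), with a fitted log2 change of 2.86 (SE 0.50, adjusted p = 0.0225) by limma. Leaving out fresh replicate 1, fresh replicate 2 or organoid replicate 1 ended the call (adjusted p of 0.149, 0.245 and 0.0885), and so did testing all genes without a filter on low values (0.0808). The change from 12 h to organoids, 2.38 (SE 0.50), did not pass at an adjusted p of 0.0694. Set against Krt8, the other abundant type II keratin, Krt7 had 0.0264 and 0.0129 times its level in fresh cells, 0.0804 and 0.0493 at 12 h, 0.0698 at 24 h, 0.212 under the 48h title and 0.675 and 0.199 in organoids. Per length of principal transcripts the organoid ratios were 1.26 and 0.372.

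Krt19, the type I keratin used most often to mark bile ducts, varied widely between libraries of the same group. It stood at 1650 and 1062 RPKM in fresh cells, 1128 and 257 at 12 h, 162 at 24 h, 634 under the 48h title and 1919.8 and 1326 in organoids. The value at 24 h was the lowest, and 12 h replicate 2 was nearer to it than to the other 12 h library. No comparison passed: the fitted change was −1.30 at 12 h (adjusted p = 0.296) and 0.27 in organoids (adjusted p = 0.832) against fresh cells, and 1.56 in organoids against 12 h (adjusted p = 0.295) by limma. The ratio of Krt19 to Krt18 was 0.246 and 0.160 in fresh cells, 0.247 and 0.0639 at 12 h, 0.0375 at 24 h, 0.169 under the 48h title and 0.289 and 0.296 in organoids. The organoid libraries were alike in that ratio (0.293 ± 0.00457) although they differed in Krt8. At least 5757 reads stood behind each Krt19 level.

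**Figure D4:**
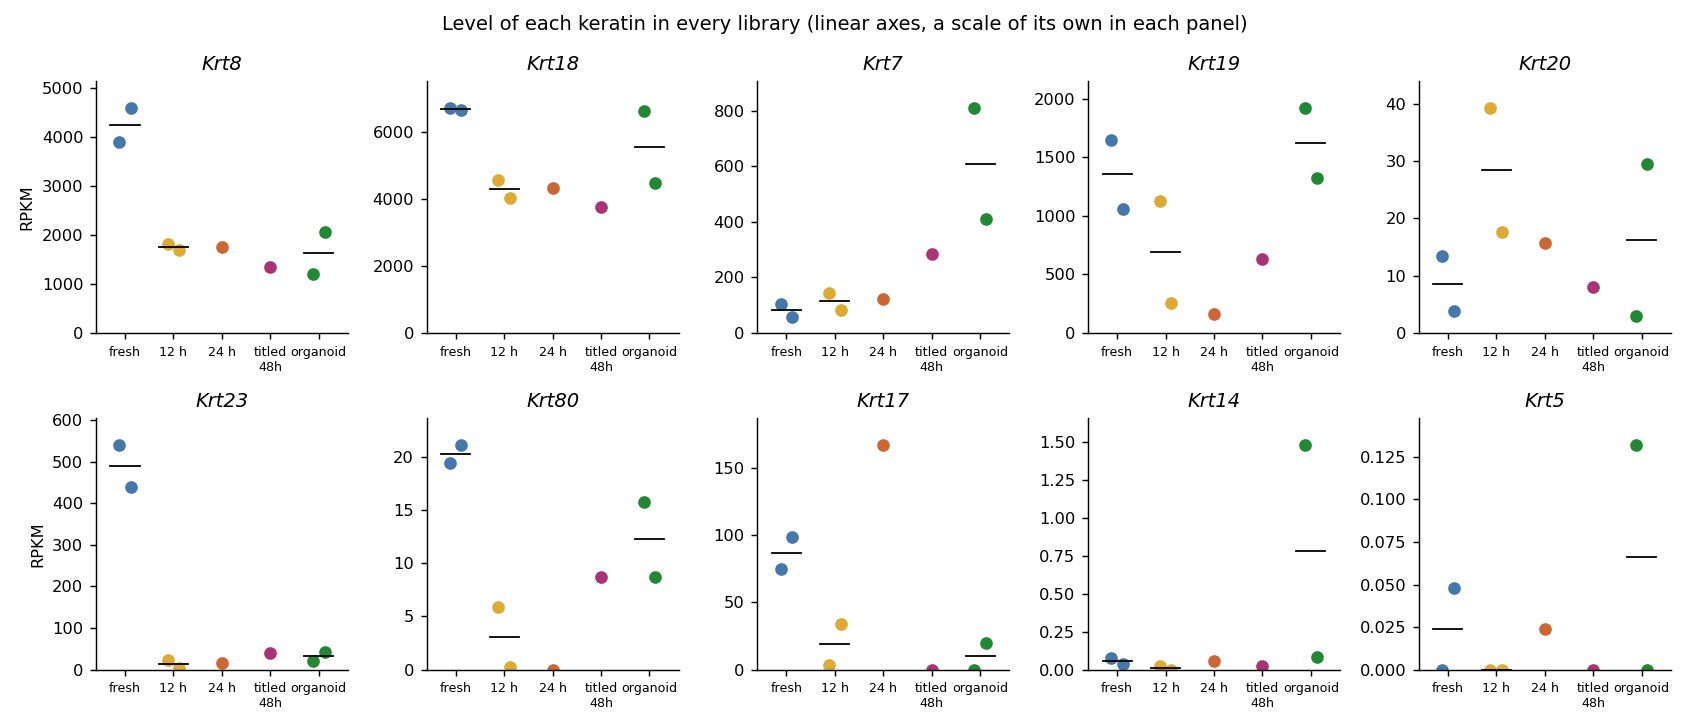
Level of each of the 10 keratins in RPKM in every library, with a linear axis of its own from 0 in each panel, 1 point a library, and a bar at the mean of each group of 2. Krt23 is high in the 2 fresh libraries alone, at 541 and 439.8 RPKM, Krt7 is highest in the 2 organoid libraries, and the highest Krt17 value is the 24 h library, at 167 RPKM.

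Krt23, a type I keratin of glandular epithelia that is less studied than the others, showed the largest fitted change of the 8 at 12 h. It stood at 541 and 439.8 RPKM in fresh cells, 23.4 and 3.65 at 12 h, 15.7 at 24 h, 40.9 under the 48h title and 21.4 and 43.5 in organoids. Both fresh libraries were more than 10 times above every cultured one. By group means Krt23 fell 36.2-fold at 12 h, from 490.2 ± 71.3 to 13.5 ± 14.0 RPKM (SD, n = 2 each). The fitted log2 change, which compares means of logs and so gives another fold, was −5.52 (SE 0.78, adjusted p = 0.0253) by limma. In organoids Krt23 was still 15.1-fold lower by group means, at 32.5 ± 15.6 RPKM and a fitted change of −3.95 (SE 0.78, adjusted p = 0.0294). The range of adjusted p over 13 alternatives was 0.0151 to 0.203 at 12 h and 0.0158 to 0.266 in organoids. At 12 h the call ended without any 1 of the 4 libraries compared (0.195 and 0.203 without fresh replicate 1 and 2, 0.0539 and 0.0503 without 12 h replicate 1 and 2) and without the filter on low values (0.0763). In organoids it ended in the same way (0.243, 0.266, 0.142 and 0.0753 without fresh replicate 1 and 2 and organoid replicate 1 and 2, and 0.112 without the filter). The fitted change stayed negative in all 13 alternatives of both comparisons, between −6.72 and −4.32 at 12 h and between −4.45 and −3.46 in organoids. The summed hepatocyte and immune markers (the latter mostly Cd74) were also highest in fresh cells, and their part in the fall of Krt23 was not tested.

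Krt80, a type II keratin found near the cell border in many epithelia, resembled Krt19 more than Krt23 in its course. It stood at 19.4 and 21.1 RPKM in fresh cells, 5.84 and 0.259 at 12 h, 8.70 under the 48h title and 15.8 and 8.70 in organoids. At 24 h it was listed at 0, where the limit that a count of 0 allows, 3 reads, stands for 0.0881 RPKM. The fitted change at 12 h was −2.86 (SE 0.81, adjusted p = 0.0822), and in organoids −0.74 against fresh cells (adjusted p = 0.588) and 2.12 against 12 h (adjusted p = 0.226), none past the threshold of limma. Krt20, a type I keratin of intestinal and urothelial surface cells, stood at 13.4 and 3.81 RPKM in fresh cells, 39.3 and 17.6 at 12 h, 15.6 at 24 h, 8.03 under the 48h title and 2.89 and 29.5 in organoids. Both 12 h values were above both fresh ones, while the organoid libraries were the lowest and the next to highest of the 8, and no comparison passed. The fitted change of Krt20 was 1.72 at 12 h (adjusted p = 0.341).

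The stratified keratins split into 1 that was expressed and 2 that were near the floor. Krt17 stood at 74.9 and 98.6 RPKM in fresh cells, 3.79 and 33.9 at 12 h, 167 at 24 h, 0.0883 under the 48h title and 0.0932 and 19.9 in organoids. The reads behind these values were 1771, 4354, 123, 1141, 4979, 3, 2 and 624 in that order, so that the library titled 48h and organoid replicate 1 were at the floor while organoid replicate 2 was not. The mean was 86.7 ± 16.8 in fresh cells, 18.8 ± 21.3 at 12 h and 9.996 ± 14.0 RPKM in organoids (SD, n = 2 each). The fitted changes of −2.75 at 12 h (SE 1.45, adjusted p = 0.28) and −4.18 in organoids (SE 1.45, adjusted p = 0.114) did not pass by limma.

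Krt5 was listed at 0 in 5 libraries and had between 1 and 4 reads in the other 3. Krt14, its partner, had at most 3 reads in 7 libraries and 36 reads, or 1.48 RPKM, in organoid replicate 1. The pair of the basal stratified layer was thus at or near the floor in both fresh libraries, with 0 and 3 reads of Krt5 and 2 and 2 reads of Krt14, while Krt17 had 1771 and 4354. Trp63, the transcription factor that defines basal stratified cells, was at most 0.124 RPKM in any library. It belongs to a list of 21 squamous and cornified envelope genes, of which 8 and 6 reached 1 RPKM in the fresh libraries. Ivl, at 54.0 and 60.3 RPKM, and Sprr1a, at 5594 and 5669, were among these, while 7 and 7 of the list were listed at 0.

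Across the 8 libraries, pairs of keratins differed in how alike their courses were. Pearson correlations of log2(RPKM + 1) are given as a description over 8 libraries that share time points and differ in depth. Krt19 and Krt80 were most alike (r = 0.93), followed by Krt8 and Krt23 (0.83). The filament partners Krt8 and Krt18 had 0.57. Krt7 and Krt17 were the most opposed (−0.75), followed by Krt7 and Krt8 (−0.68).

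Outside the keratins, 6931 genes that averaged 5 RPKM or more were ranked by the same measure, and the 3 nearest genes are named for each keratin. Those of Krt7 were Tmem106c (r = 0.98), Ly6a (0.98) and Dynll1 (0.97), and Ly6a, a surface protein used as a stem and progenitor marker, stood at 101 and 51.4 RPKM in fresh cells and at 3259 and 1106 in organoids. Those of Krt8 were Lif (0.99), Rela (0.98) and Plet1 (0.97), and Lif, a cytokine of the interleukin 6 family, stood at 85.2 and 134 RPKM in fresh cells and between 1.61 and 11.01 in culture. Those of Krt18 were Kdm3a (0.94), Isg20 (0.93) and Cyp2s1 (0.91), and of Krt19 Cdc42ep2 (0.97), Capn5 (0.97) and Stom (0.96). Krt23 was nearest to Lmo7 (0.98), Psors1c2 (0.96) and Irak2 (0.95), and Krt80 to As3mt (0.99), Rnf139 (0.99) and Cldn8 (0.97). Krt20 was nearest to Necap2 (0.96), Fam84a (0.93) and Gosr2 (0.92), and Krt17 to Hmgxb3 (0.98), Prpf18 (0.97) and Trp53bp2 (0.96). With 6931 genes and 8 libraries, high values of r arise easily, and no p is given.

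Among the 43 other keratin genes, 4 reached 1 RPKM in any library and 5 were listed at 0 in all. Krt10, a type I keratin of differentiating epidermis, stood at 1.66 and 1.49 RPKM in fresh cells, 6.999 and 15.7 at 12 h, 0.920 at 24 h, 4.97 under the 48h title and 2.52 and 3.68 in organoids. The 12 h libraries were the highest for Krt10, and limma did not call it in any comparison. Krt39 reached 4.15 RPKM in 12 h replicate 1, Krt73 2.27 in organoid replicate 1 and Krt6a 1.82 in organoid replicate 2, and each passed 1 RPKM in 1 library only. A processed copy of Krt8, the pseudogene Krt8-ps, was listed at between 1.91% and 2.41% of the Krt8 level in every library. The sources used here do not tell how reads that fit both were counted, and the share varied little between libraries.

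Genes that anchor keratin filaments were counted against the shares of all genes called, 6.81% at 12 h, 10.1% in organoids against fresh cells and 2.0% in organoids against 12 h. Of 16 desmosome and linker genes tested, 1 was called lower and 0 higher at 12 h, 1 each way in organoids against fresh cells, and 0 in organoids against 12 h. Dsg2, the desmosomal cadherin of simple epithelia, fell from 145 ± 22.0 RPKM in fresh cells to 26.0 ± 12.4 at 12 h (log2 −2.51, adjusted p = 0.0487) and 9.58 ± 6.47 in organoids (−3.93, adjusted p = 0.014; SD, n = 2 each) by limma. Pkp1, a plaque protein typical of stratified epithelia, rose from 0.0245 ± 0.0346 to 5.53 ± 4.86 RPKM in organoids (2.44, adjusted p = 0.0416). The median fitted change of the list was 0.08 at 12 h and −0.78 in organoids against fresh cells, beside 0.24 and 0.17 over all genes tested.

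Of 5 other intermediate filament genes tested, limma called 0 in any comparison, where 6.81%, 10.1% and 2.0% of all genes were called. Their median fitted change was 0.03 at 12 h and 0.72 in organoids against fresh cells, beside 0.24 and 0.17 over all genes tested. Of 10 genes that bind, cleave or modify keratins, 1 was called higher at 12 h, 1 lower in organoids against fresh cells and 0 in organoids against 12 h, with medians of −0.35 at 12 h and −0.35 in organoids against fresh cells. Casp6, a caspase that cuts Krt18, rose at 12 h from 5.55 ± 0.471 to 22.7 ± 3.89 RPKM (log2 1.85, adjusted p = 0.0398) by limma. Hspb1, a small heat shock protein that associates with keratin filaments, fell in organoids from 122 ± 23.6 to 9.30 ± 4.62 RPKM (−3.65, adjusted p = 0.0156; SD, n = 2 each).

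Of 8 squamous and cornified envelope genes tested, 1 was called lower and 0 higher at 12 h, 2 higher and 1 lower in organoids against fresh cells, and 1 higher in organoids against 12 h. Over all genes tested, 6.81%, 10.1% and 2.0% were called in these comparisons. Ivl, a cornified envelope precursor, fell from 57.1 ± 4.43 RPKM in fresh cells to 0.857 ± 1.21 at 12 h (log2 −5.14, adjusted p = 0.0189) and 1.55 ± 0.412 in organoids (−4.52, adjusted p = 0.0119) by limma. Sprr2a3, a small proline-rich envelope protein, rose in organoids from 0.683 ± 0.258 to 34.5 ± 32.5 RPKM (4.02, adjusted p = 0.0481; SD, n = 2 each). Of 14 ductal markers tested, 0 were called at 12 h, 1 higher and 2 lower in organoids against fresh cells, and 1 higher in organoids against 12 h, beside the same shares over all genes. The 2 that fell were Cldn4 (−3.09, adjusted p = 0.0224) and Cftr (−2.65, adjusted p = 0.0296) by limma. The 1 called higher was the same gene in both comparisons. It stands in both lists and is also counted among the squamous genes called higher.

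Of the 11 hepatocyte markers tested, 7 fell at 12 h and 8 in organoids against fresh cells by limma. Over all genes tested, 3.72% were called lower at 12 h and 4.94% in organoids. The 12 immune markers summed to 288 and 275 RPKM in fresh cells and to between 14.9 and 145 in culture. Cd74 alone gave 257 and 254 RPKM of the fresh sums and 136 of the highest cultured one, while Ptprc, the pan-leukocyte marker, was at most 0.0143 RPKM in any library. The 12 mesenchymal markers summed to 81.7 and 65.4 RPKM in fresh cells, 181 and 389 at 12 h, 438 at 24 h, 38.0 under the 48h title and 0.453 and 2.14 in organoids. Nearly all of these sums in the 12 h and 24 h libraries was Rgs5, a pericyte marker, at 179, 389 and 438 RPKM, while 9, 8 and 10 of the 12 were listed at 0 there. The 8 mesothelial markers summed to between 37.9 and 57.2 RPKM in the fresh and 12 h libraries, 137 at 24 h, 419 under the 48h title and 489 and 475 in organoids, of which Msln gave 482 ± 9.39 in organoids (SD, n = 2) and 6 of the 8 were listed at 0 in organoid replicate 1. Of the 3 mesothelial markers tested in organoids against fresh cells, limma called Msln higher and 2 lower, Gpm6a and Nkain4. Over all genes tested, 5.15% were called higher and 4.94% lower. By group means Gpm6a fell from 22.6 to 0.00741 RPKM and Nkain4 from 6.86 to 0.216. Mesothelium also makes keratins, Krt7 among them, and the part of these markers in the level of Krt7 was not tested. The 10 endothelial markers summed to at most 5.46 RPKM in any library. Limma called 12 of the 14 proliferation genes higher in organoids than in fresh cells, where 5.15% of all genes tested were called higher. The 14 summed to 349 and 638 RPKM in organoids, 923 under the 48h title and at most 124 in any other library. The organoid libraries and the one titled 48h were also the highest in Krt7, at 809.8, 409 and 285 RPKM, a different order. The relation of these genes to Krt7 was not tested.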

How the data were processed

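RNA from EpCAM-sorted cells was extracted with a column kit, copied by Smart-seq2 and tagmented with Nextera XT, per the labels' protocols. The authors deposited 1 table of RPKM values with 8 libraries in separate columns. The genome was GRCm38 and edgeR was used, per the submitters' processing notes; the sources used here name no aligner, counter, annotation release, strandedness or scaling factor. GENCODE M21 named 47224 identifiers and left 505 unnamed. Reads per keratin and the length behind its RPKM were recovered from the steps of the deposited values, where reads came out whole within 0.001; intervals and floors cover counting error only, since PCR copies are not independent molecules.

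Levels were tested as log2(RPKM + 1), with no scaling between libraries, for the 12900 genes that reached 1 RPKM in 2 libraries or more, with limma 3.58.1 in R 4.3.3 (eBayes with trend, 5 group coefficients, 3 residual degrees of freedom, two-sided, Benjamini-Hochberg within each comparison). A fold on this scale understates changes of low genes, and as a difference of mean logs it can lie above or below the fold between group means. Libraries without a replicate were described with no test. The procedure was tested on simulated data of independent normal values, which cannot show whether calls from 2 libraries a group hold in these data. Figures were drawn with matplotlib 3.10.9 in Python 3.11.15.

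The members and lists were chosen with earlier results of these data known. Named genes were all 10 keratins, other keratins with at least 1 RPKM in any library, up to 4 called members of each list per comparison by size of change, of which some are given only in the counts, and the 3 genes nearest to each keratin by correlation. The results of 1 listed gene are not reported here by name, though it stays in the counts. Trp63, Epcam, Ptprc, Sprr1a and Krt8-ps were named outside that rule after their values were seen. Replicate numbers were not taken to pair the libraries, and the alternatives are given at the end.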

Additional observations from a re-analysis of the deposited data

How the results depend on the processing

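Alternatives were a pseudocount of 0.1, no filter on low values, a mean of at least 5 RPKM, centring on library medians, quantile normalization, only the groups compared, a replicate block and leaving out each library. The count of keratins called at 12 h against fresh cells was 0 with no filter and between 0 and 1 when a library was left out, and in organoids against fresh cells it was 0 with no filter and between 0 and 2 when a library was left out. Calls over all genes were also lost, all or most of them, at 12 h against fresh cells without any of the libraries compared. The same held in organoids against fresh cells without either fresh library or organoid replicate 1, but not without organoid replicate 2. The lost calls in the former cases are thus not particular to keratins. With the replicate block 1 keratin was called in organoids against 12 h (Krt7, adjusted p = 0.0324) and 3 in organoids against fresh cells, Krt17 (adjusted p = 0.033) being the added one. Deviations of same-numbered libraries correlated at 0.28, 0.27 and 0.02, which does not settle whether the numbers pair libraries. In all 3 replicated groups replicate 1 was higher than replicate 2 in Krt7, Krt18 and Krt19 and lower in Krt17. Krt8, Krt20, Krt23 and Krt80 kept no such order. Whether a shared origin lies behind this was not tested. Directions of keratins that were not called turned in places. In organoids against fresh cells the fitted change lay between −1.10 and 1.87 for Krt20 when a library was left out (−0.40 without fresh replicate 2 and −1.10 without organoid replicate 2) and between −0.048 and 0.59 for Krt19, the lowest being without fresh replicate 2. In organoids against 12 h it was 0.065 for Krt8 when libraries were centred, and without organoid replicate 1 and 2 it was 0.24 and −0.54 for Krt8, 0.16 and −2.82 for Krt20, and 0.69 and −3.56 for Krt17. The cause was not tested. Genes averaging 5 RPKM or more had a median change of 0.40 at 12 h and 0.27 in organoids against fresh cells, and −0.17 in organoids against 12 h. Rescaled to TPM, the keratin sum was 35679, 18881 and 23545 in fresh, 12 h and organoid libraries, and 38102, 20695 and 24635 without mitochondrial genes, with the order kept. As shares of reads, not transcripts, Krt18 had 44.4%, 53.4% and 42.5% and Krt7 2.71%, 6.96% and 23.0% in fresh, 12 h and organoid libraries, and Krt80 0.171% in fresh ones. With principal transcript lengths, added after seeing the data, Krt18 had 51.0% and Krt80 0.0919% in fresh libraries. On the same lengths Krt7 had 1.09%, 2.81% and 10.3% in the 3 groups, and in organoids Krt18 had 54.0%, Krt19 19.1% and Krt80 0.0697%. With 2 libraries a group, the calls rest on 3 residual degrees of freedom.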

Other observations

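The 2 organoid libraries differed in several keratins at once. Replicate 1 had 1199.7 RPKM of Krt8, 2.89 of Krt20 and 0.0932 of Krt17, and replicate 2 had 2059, 29.5 and 19.9. Replicate 1 in turn had 809.8 RPKM of Krt7 and 1.48 of Krt14, against 409 and 0.0844 in replicate 2. Sprr1a, a cornified envelope precursor that was at 5594 and 5669 RPKM in fresh cells, stood at 2383 RPKM in replicate 1 and 39.1 in replicate 2. With 2 libraries there is no test of which is typical.

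The 2 libraries without a replicate also differed. At 24 h Krt17 was at 167 RPKM, Krt19 at 162 and Krt80 was listed at 0, while the library titled 48h had 0.0883 RPKM of Krt17, 634 of Krt19 and 8.70 of Krt80. The 14 proliferation genes summed to 124 RPKM at 24 h and 923 under the 48h title, which the other labels place at the same time point.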
